A study of Mus musculus with 12 samples.

Results

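The 7 genes described here take up, cut, bind, esterify and oxidise vitamin A and its plant precursors, or control these steps. They are Scarb1, Bco1, Isx, Rbp2, Lrat, Rdh7 and Aldh1a1. They were taken by name from the deposited table of 35275 mouse genes, where 6 of 7 were found by symbol and Bco1 was found through its gene identifier under its older symbol Bcmo1. The members were not chosen by a threshold on their values, but they were chosen with earlier results of these data known. The RNA came from the ileum, the last stretch of the small intestine, of C57BL/6 pups on postnatal day 14. Of the 6 dams, all fed a standard diet, 3 were restrained in a ventilated tube for 2 h each day between gestational days 7 and 19, and the other 3 stayed in their home cages. Each dam gave 1 male and 1 female pup, which makes 4 groups of 3 libraries, by the sex of the pup and the treatment of the dam. "Stressed" names the treatment of the dam, no pup was restrained, and the dam is the unit of replication. The comparisons ask whether stress of the dam in pregnancy changed these genes in the ileum of the offspring, and whether any change differed between the sexes.

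Dietary vitamin A reaches the gut as preformed retinyl esters, which are split to retinol before uptake, and as carotenoids such as beta-carotene. The absorptive epithelial cell (enterocyte) takes up carotenoids through the scavenger receptor SR-B1, encoded by Scarb1, and cuts beta-carotene to retinal with the oxygenase encoded by Bco1. Isx encodes an intestine-specific homeobox factor that is induced by retinoic acid and represses Scarb1 and Bco1. Retinal is reduced to retinol, which is held by the cellular retinol-binding protein encoded by Rbp2, joined to a fatty acid by the acyltransferase encoded by Lrat, and exported in chylomicrons. Retinol dehydrogenases, of which Rdh7 encodes one, turn retinol to retinal, and the dehydrogenase encoded by Aldh1a1 turns retinal to retinoic acid, the ligand of nuclear receptors.

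The genes lie apart in the genome. The deposited table places Scarb1 at chr5:125277087-125341094 (minus strand), Bco1 at chr8:117095854-117133720 (plus), Isx at chr8:74873173-74893506 (plus) and Rbp2 at chr9:98486115-98509781 (plus). It places Lrat at chr3:82892579-82903973 (minus), Rdh7 at chr10:127884028-127888817 (minus) and Aldh1a1 at chr19:20601961-20643462 (plus). All 7 are listed as protein-coding, and the build named by the submitters' processing notes is GRCm38, also called mm10.

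Library totals lay between 16423523 and 20075567 counts in the 6 males and between 20730243 and 22975526 counts in the 6 females. The label ileum was compared with marker lists that were chosen with earlier results of these data known. Both pups of control dam 3 stood apart. Over 7 markers of the upper small intestine, control male 3 summed to 16269 CPM and its sister, control female 3, to 7779 CPM, whereas the remaining 10 libraries summed to between 1005 and 3095 CPM. CPM here means counts relative to the library total, scaled by edgeR's TMM factors. Gata4, whose transcription factor marks duodenum and jejunum, stood at 135 and 51.0 CPM in these pups and at 0.33 to 4.06 CPM elsewhere. Onecut2, of the same list, stood at 19.4 CPM in control male 3. In its sister it stood at 0.61 CPM, inside the 0.20 to 1.52 CPM of the rest. The remaining markers of this list were higher in both pups. Apoa4 and Lct were the largest, at 8849 and 5240 CPM in control male 3 and at 4392 and 2318 CPM in its sister. The 5 ileal markers did not move together in these pups. Control male 3 summed to 413 CPM and its sister to 789 CPM, inside the range of 366 to 1340 CPM of the rest. The bile acid-binding protein gene Fabp6 was listed with 0.72 CPM in the brother and 61.0 CPM in the sister, whereas the rest ran from 29.9 to 608 CPM. The bile acid uptake gene Slc10a2 had 0.20 and 1.97 CPM, against 1.67 to 6.43 CPM. The hormone gene Fgf15 stood at 24.7 and 186 CPM, against 47.0 to 165 CPM. Slc51b, a subunit of the bile acid exporter, was higher in both, at 15.2 and 21.0 CPM against 3.94 to 14.0 CPM, and Slc51a, the other subunit, lay inside the range. The summed level of 6 enterocyte markers was 8342 and 6679 CPM in these pups and 3921 to 5436 CPM in the others. Fabp2, at 2141 and 656 CPM against 88.3 to 257 CPM, Krt20, Vil1 and Alpi were higher in both pups. Cdh1 was higher only in the brother (731 CPM) and lay inside the range in the sister (607 CPM). Epcam was higher only in the sister (1890 CPM) and lay inside the range in the brother (1407 CPM). The sum of 6 markers of exocrine pancreas was also higher in both pups, at 61.6 and 46.1 CPM against 6.15 to 20.5 CPM. It came from Clps, at 44.2 and 33.8 CPM against 6.10 to 20.3 CPM, and from Ctrb1, at 17.4 and 12.2 CPM against 0.054 to 0.65 CPM. Prss2, Cpa1 and Pnlip were at 0 in all 12 libraries and Cel in 6. For 6 liver markers the brother summed to 46.3 CPM, the sister to 78.8 CPM and the rest to between 50.6 and 129 CPM. Serpina1a stood at 18.7 CPM in control male 3 and did not exceed 2.26 CPM in any other library, Fgb stood at 0.13 and 5.34 CPM in the 2 pups against 12.6 to 22.4 CPM, and Alb did not exceed 0.304 CPM in any library. Results are therefore given with and without control dam 3.

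Per length, the 7 genes covered a wide range, as the plot of FPKM by gene shows. FPKM is the authors' count scaled by gene length and library total, without TMM scaling. Rbp2 had the highest mean, 461 ± 538 FPKM (SD, n = 12 libraries), which lay above 99.5% of the 24252 genes with a count. Isx followed with 78.5 ± 11.1 FPKM, Aldh1a1 with 42.2 ± 26.0 FPKM, Lrat with 14.5 ± 9.67 FPKM and Rdh7 with 14.0 ± 23.6 FPKM. Scarb1 had 7.18 ± 1.06 FPKM and Bco1 0.505 ± 0.117 FPKM, a level exceeded by most genes with a count. Each gene lay above the next in this order in at least 10 of 12 libraries, apart from Rdh7, which exceeded Scarb1 in 4 of 12. Over the 10 libraries without control dam 3, the mean of Rdh7 was 5.33 ± 2.72 FPKM and that of Scarb1 7.14 ± 1.04 FPKM, so these neighbours did not differ beyond their spread. In the same 10 libraries the mean of Rbp2 was 261 ± 73.0 FPKM. The retinol-binding protein gene was therefore the most abundant of the 7, and the carotene oxygenase gene the least, in every library.

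**Figure D1:**
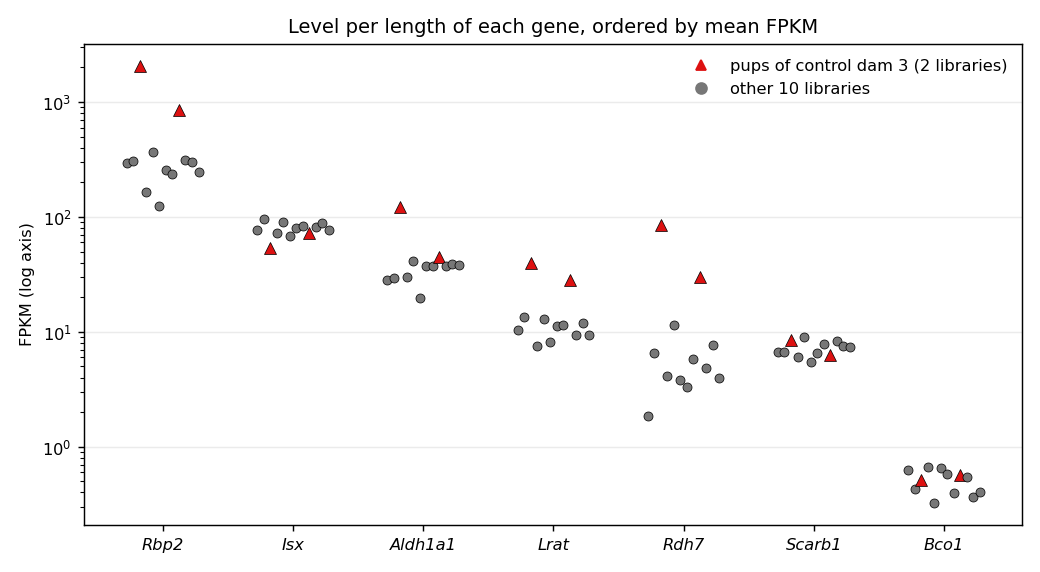
Deposited FPKM (log axis) of each gene in the 12 libraries, 1 point per library, with genes in order of mean FPKM. Red triangles are the 2 pups of control dam 3 and grey circles the other 10 libraries; the triangles lie above all circles for Rbp2, Aldh1a1, Lrat and Rdh7 and among or below them for Isx, Scarb1 and Bco1.

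For uptake, Scarb1 stood at 20.8, 20.4 and 29.9 CPM in control males 1 to 3 and at 19.0, 27.0 and 17.7 CPM in stressed males 1 to 3. In females it stood at 19.1, 23.6 and 20.2 CPM in controls and at 24.3, 22.8 and 22.0 CPM in stressed pups. The groups overlapped in each sex. Control male 3 was the highest of 12 on the TMM scale, but on the FPKM scale stressed male 2 (8.95 FPKM) lay above it (8.45 FPKM). Over dams, with littermates summed, the control dams had 22.2 ± 2.13 CPM and the stressed dams 22.2 ± 2.53 CPM (SD, n = 3 dams each). The log2 fold change, stressed over control, was 0.00 ± 0.12 (SE), with a 95% interval from -0.28 to 0.29 (edgeR quasi-likelihood F test, Benjamini-Hochberg adjusted p = 1.00).

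For cleavage, Bco1 was near the lower end of detection, with 15 to 31 reads per library. It stood at 1.46, 0.99 and 1.37 CPM in control males and at 1.56, 0.74 and 1.59 CPM in stressed males. In females it stood at 1.27, 0.90 and 1.41 CPM in controls and at 1.22, 0.84 and 0.92 CPM in stressed pups. Every library held the transcript, the groups overlapped, and the pups of control dam 3 lay inside the range of the rest. The change over dams was -0.14 ± 0.27 (log2, SE), with an interval from -0.79 to 0.50 (edgeR, adjusted p = 1.00). The deposited interval of Bco1 overlaps that of Gm20694, a pseudogene annotated on the same strand, and 1.42% of its 50-base stretches occur in other genes, so a small share of these few reads could belong elsewhere.

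The repressor gene Isx varied least. It stood at 138, 169 and 110 CPM in control males, at 132, 158 and 128 CPM in stressed males, at 136, 146 and 138 CPM in control females and at 140, 154 and 135 CPM in stressed females. Control male 3 was the lowest of the 12 libraries and its sister the seventh highest. Over dams the levels were 141 ± 17.1 CPM for controls and 141 ± 14.3 CPM for stressed dams (SD, n = 3 dams each). The change was 0.00 ± 0.12 (log2, SE), and its interval ran from -0.29 to 0.29 (edgeR, adjusted p = 1.00). For Isx and Scarb1, then, changes beyond about these intervals were not seen, while smaller ones cannot be resolved with 3 dams against 3.

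Rbp2 stood at 239, 241 and 1895 CPM in control males and at 133, 287 and 104 CPM in stressed males. In females it stood at 194, 185 and 723 CPM in controls and at 237, 236 and 191 CPM in stressed pups. The 2 highest libraries were the pups of control dam 3, which carried 8.82 and 3.36 times the median of the other 10, and the remaining control pups lay among the stressed ones. Summed per dam, the controls had 215, 216 and 1212 CPM and the stressed dams 186, 263 and 154 CPM. The change was -1.44 ± 0.68 (log2, SE), with an interval from -3.04 to 0.15 (edgeR, adjusted p = 1.00), and -0.09 without control dam 3.

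Lrat, which makes the retinyl esters, stood at 55.4, 71.1 and 245 CPM in control males and at 40.4, 67.7 and 45.4 CPM in stressed males. In females it stood at 56.6, 60.1 and 157 CPM in controls and at 47.2, 61.9 and 48.6 CPM in stressed pups. Again both pups of control dam 3 were highest, at 4.37 and 2.81 times the median of the other 10. Over dams the controls had 56.4, 66.5 and 194 CPM and the stressed dams 43.5, 65.4 and 47.1 CPM. The change was -1.02 ± 0.46 (log2, SE), with an interval from -2.10 to 0.06 (edgeR, adjusted p = 1.00), and -0.24 without control dam 3. The deposited interval of Lrat overlaps Rbm46os on the opposite strand, and no source used here says that strand was counted.

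Rdh7 showed the widest spread, from 3.13 to 163 CPM. It stood at 3.13, 10.8 and 163 CPM in control males, at 7.00, 18.7 and 6.61 CPM in stressed males, at 5.22, 9.53 and 52.7 CPM in control females and at 7.64, 12.5 and 6.55 CPM in stressed females. The pups of control dam 3 had 22.3 and 7.20 times the median of the other 10, while the pups of control dam 1 were the lowest of all. Over dams the values were 4.35, 10.3 and 98.8 CPM for controls and 7.25, 15.6 and 6.55 CPM for stressed dams. The change was -1.94 ± 1.06 (log2, SE), with an interval from -4.43 to 0.55 (edgeR, adjusted p = 1.00). Without control dam 3 it was 0.43, on the other side of 0. Of the 50-base stretches of Rdh7 in GENCODE M21, 12.9% also occur in related genes such as Rdh18-ps, Rdh1, Rdh16f1 and Rdh19, so part of its count is uncertain. Rdh1 stood at 1.43 and 3.51 CPM in the pups of control dam 3, against 2.43 to 11.5 CPM in the other 10 libraries. In those 10 the median was 8.91 CPM for Rdh1 and 7.32 CPM for Rdh7. Control male 1 held the lowest level of both genes among them.

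Aldh1a1 stood at 58.7, 59.7 and 286 CPM in control males and at 62.6, 83.3 and 41.9 CPM in stressed males. In females it stood at 72.2, 75.8 and 97.0 CPM in controls and at 73.1, 77.4 and 76.7 CPM in stressed pups. The pups of control dam 3 were again the highest, but the daughter only by 1.16 times the next library. Over dams the controls had 66.8, 69.0 and 176 CPM and the stressed dams 67.3, 81.1 and 61.9 CPM. The change was -0.57 ± 0.37 (log2, SE), with an interval from -1.44 to 0.30 (edgeR, adjusted p = 1.00), and 0.05 without control dam 3. Its near copy Aldh1a7 holds 3.06% of its 50-base stretches. Aldh1a7 stood at 49.0 CPM in control male 3 and at 4.97 to 15.5 CPM in the other 11 libraries, the sister included.

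**Figure D2:**
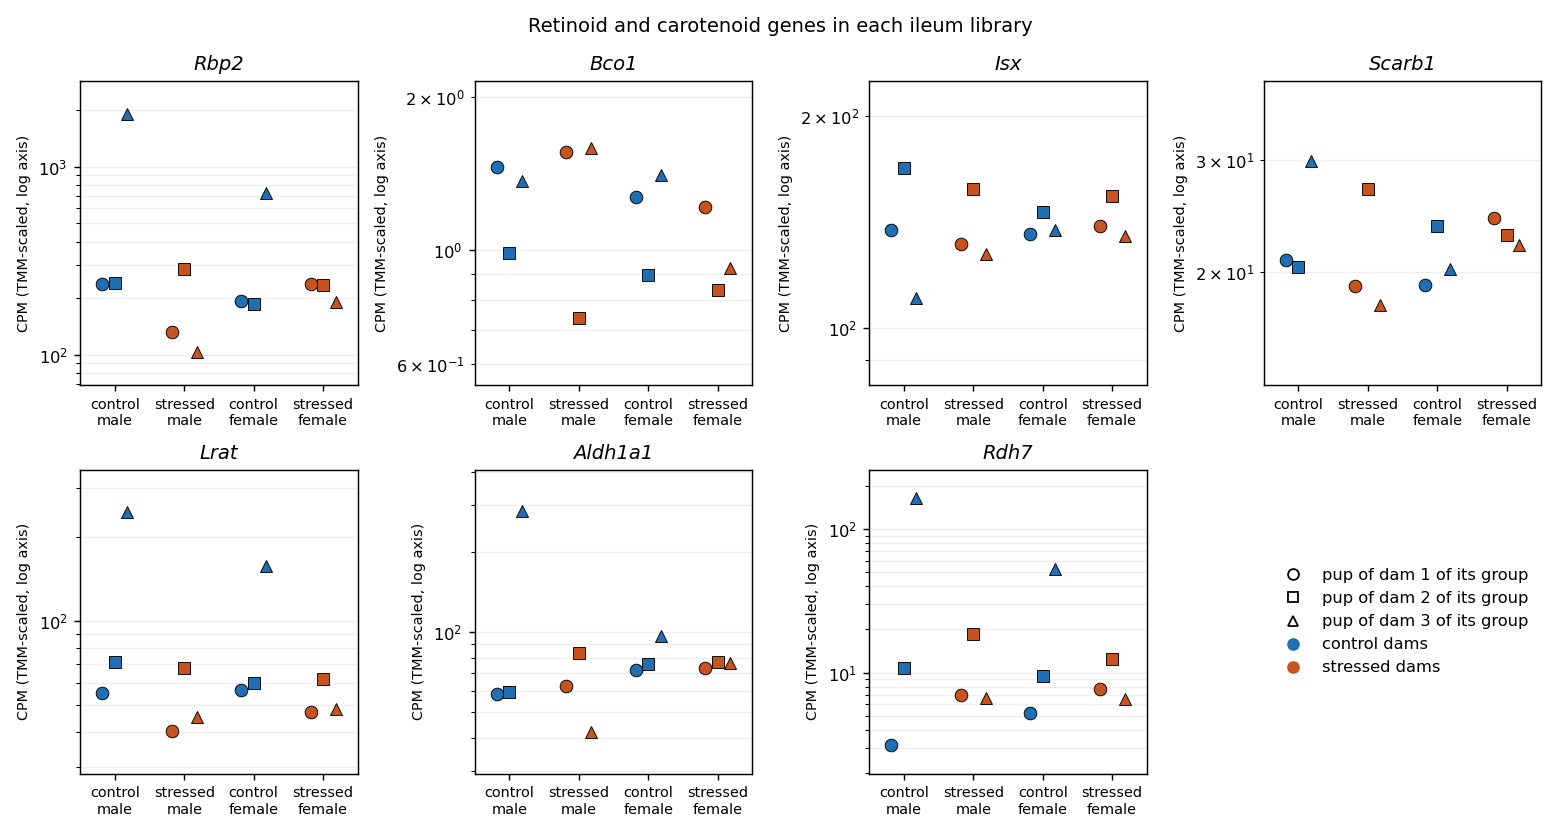
Level of each gene in every library as TMM-scaled CPM (log axis, a separate scale per gene), with libraries by group on the horizontal axis and marker shape for the dam number. Blue is control and orange stressed; the 2 blue triangles, from control dam 3, are the highest points for Rbp2, Lrat, Aldh1a1 and Rdh7, and the groups overlap for all 7 genes.

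Over dams, none of the 7 genes passed the threshold, an adjusted p under 0.05. The same held for all genes tested, with 0% called of 16749 (edgeR), and DESeq2 and limma on log2 FPKM also called 0 of the 7. At an unadjusted p under 0.05 the count was 0 of 7 members, against 1.36% of all genes tested. No member had groups of dams that did not overlap, against 5.71% of all genes. Of the 7 changes 5 were below 0, against 48.7% of all genes, with a median of -0.57 against 0.00. This is a description only, since the members were chosen with earlier results of these data known. The 5 genes below 0 were Rbp2, Bco1, Lrat, Aldh1a1 and Rdh7, and the size of 4 of these changes rested on control dam 3. Whether the higher sums of upper-intestinal, enterocyte and pancreatic markers in this litter play a part in these differences was not tested. In bulk RNA, fewer cells of a type and less RNA per cell cannot be told apart.

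In males the changes with stress were larger in size for Rbp2, Lrat, Rdh7 and Aldh1a1, though the difference between the sexes did not pass the test. Rbp2 had 792 ± 956 CPM in control and 175 ± 98.4 CPM in stressed males (SD, n = 3 each), a change of -2.18 ± 0.81 (log2, SE; edgeR, adjusted p = 0.752). Lrat had 124 ± 105 and 51.1 ± 14.5 CPM, a change of -1.27 ± 0.54 (edgeR, adjusted p = 0.752). These were the 2 of 7 members with an unadjusted p under 0.05, beside 6.38% of all 16102 genes tested, and 0 members passed the threshold, as did 0% of all genes. The changes of Rdh7 and Aldh1a1 were -2.45 ± 1.21 and -1.10 ± 0.51, both with an adjusted p of 0.752 by edgeR. The values for Scarb1, Isx and Bco1 were -0.16 ± 0.19, 0.00 ± 0.16 and 0.02 ± 0.35. Of the 7 values 6 were below 0 (48.3% of all genes), and none had groups without overlap (5.67% of all genes). Without both pups of control dam 3 the values were -0.46 for Rbp2, -0.31 for Lrat, 0.08 for Aldh1a1 and 0.62 for Rdh7. Among the males left, the 2 lowest Rbp2 levels were those of stressed males 1 and 3, 133 and 104 CPM. These libraries also had the lowest summed upper-intestinal markers, 1005 and 1051 CPM, together with control male 1 at 1076 CPM, in which Rbp2 stood at 239 CPM.

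In females 0 of 7 members passed the threshold (0% of all 16102 genes tested by edgeR), and 0 of 7 had an unadjusted p under 0.05 (0.298% of all genes). The changes were -0.73 ± 0.78 for Rbp2, -0.80 ± 0.53 for Lrat, -1.33 ± 1.18 for Rdh7 and -0.11 ± 0.51 for Aldh1a1 (log2, SE). Bco1 had -0.26 ± 0.34, Isx 0.03 ± 0.16 and Scarb1 0.14 ± 0.19. Of these, 5 lay below 0 (51.5% of all genes), and groups overlapped for all 7 (5.56% of all genes did not overlap). Without both pups of control dam 3 the values were 0.22 for Rbp2, -0.15 for Lrat, 0.27 for Rdh7 and 0.03 for Aldh1a1. The stressed females were the most alike of the 4 groups for Rbp2 and Aldh1a1, at 221 ± 26.2 and 75.7 ± 2.33 CPM (SD, n = 3).

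**Figure D3:**
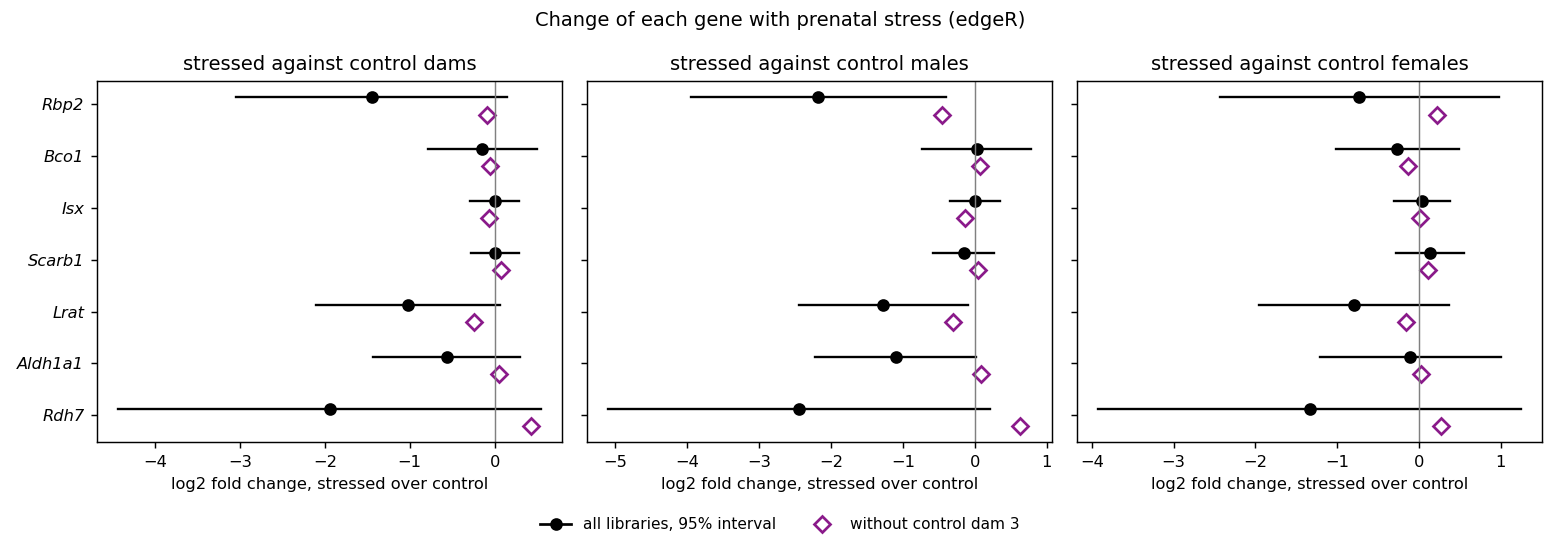
Log2 fold change of each gene, stressed over control (horizontal axis), over dams, in males and in females, by edgeR. Filled circles with 95% intervals use all libraries and open diamonds leave out control dam 3; for Rbp2, Lrat, Aldh1a1 and Rdh7 the diamonds lie nearer to 0 than the circles or beyond it, and for Isx, Scarb1 and Bco1 both lie near 0.

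The test of the difference, the male change minus the female change, called 0 of 7 members and 0% of all 16102 genes (edgeR), with 0 members against 2.15% of all genes at an unadjusted p under 0.05. The differences ran from -1.45 ± 1.10 for Rbp2 to 0.29 ± 0.49 for Bco1 (log2, SE). The interval for Rbp2 ran from -3.86 to 0.96, so that large differences between the sexes in either direction could not be resolved. Between males and females 0 of 7 members passed, beside 0.0497% of all genes (0.0373% higher and 0.0124% lower in males), and 0 members against 12% of all genes had an unadjusted p under 0.05. Littermates were not paired in this comparison or in that of the difference. Of the 7 values, male over female, 1 was below 0, against 50.6% of all genes. The largest was 0.84 ± 0.83 for Rdh7, and the smallest in size was -0.03 ± 0.11 for Isx (log2, SE). Within litters, the brother had the higher level in 4 of 6 litters for Rbp2, Bco1 and Rdh7, in 3 of 6 for Isx, Scarb1 and Lrat and in 2 of 6 for Aldh1a1. The ratio of brother to sister for Rbp2 was 2.62 in control dam 3, and 0.559 and 0.544 in stressed dams 1 and 3.

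In the authors' deposited table, the log2 fold change for stressed over control pups of both sexes was -0.32 for Rbp2, with a p of 0.0143 and an adjusted p of 1.00. The authors' deposited table gives Lrat at -0.47 with a p of 0.00314 and Rdh7 at -0.23 with a p of 0.0304, both with an adjusted p of 1.00. For males, the authors' deposited table has -0.62 for Lrat, with a p of 0.0125 and an adjusted p of 1.00. It has -0.48 for Aldh1a1, with a p of 0.0498 and an adjusted p of 0.99993, and -0.33 for Rbp2, with no p listed. These values have the same sign as those computed here over dams and in males, and all are smaller in size. For females, the lowest p in the authors' deposited table was 0.114, for Lrat at -0.15. The deposited comparison of both sexes is labelled without the dam, so its p-values are not set on the same unit. With littermates summed per dam, the unadjusted p was 0.0697 for Rbp2, 0.0605 for Lrat and 0.108 for Rdh7 (edgeR).

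The levels per length show how the 4 genes that were high in control dam 3 moved against the others. The ratio of Rbp2 to Isx, in FPKM, was 38.4 in control male 3 and 11.7 in control female 3, against 1.82 to 4.06 in the other 10 libraries. The ratio of Lrat to Isx was 0.744 and 0.383 in these pups and 0.103 to 0.144 elsewhere. The ratio of Scarb1 to Bco1, the targets of the repressor, was 16.5 and 10.9 in these pups, inside the range of 8.44 to 27.7 of the rest. Among the 4, the surplus was unequal. The ratio of Rdh7 to Aldh1a1 was 0.699 and 0.665 in these pups and 0.0653 to 0.275 elsewhere.

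The RefSeq promoter windows of the 4 genes that were high together are printed with that of Bco1, which was not. Each window runs from 250 bases before to 50 bases after the RefSeq start site, 5′ to 3′ on the gene's own strand, in build GRCm38.p6. A window was found for 6 of the 7 members. That of Isx, which held no match and was not among the 4 genes, is not printed. For Aldh1a1 and for Rdh7, 2 windows were listed, and only the 1 nearest to the gene start in the deposited table was searched. In the Rbp2 line the window lies 4422 bases downstream of the gene start in the deposited table, since RefSeq starts the transcript further in. The windows are chr9:98490287-98490586 on the plus strand for Rbp2, chr3:82903925-82904224 on the minus strand for Lrat, chr10:127888684-127888983 on the minus strand for Rdh7, chr19:20601718-20602017 on the plus strand for Aldh1a1 and chr8:117095615-117095914 on the plus strand for Bco1. Capitals mark matches, on either strand, to 5 motifs of 6 bases: the nuclear receptor half-site AGGTCA, the motif AGATAA that GATA factors bind, the HNF1 half-site GTTAAT, the homeobox core TAATTA and the HNF4 core CAAAGT.
Rbp2: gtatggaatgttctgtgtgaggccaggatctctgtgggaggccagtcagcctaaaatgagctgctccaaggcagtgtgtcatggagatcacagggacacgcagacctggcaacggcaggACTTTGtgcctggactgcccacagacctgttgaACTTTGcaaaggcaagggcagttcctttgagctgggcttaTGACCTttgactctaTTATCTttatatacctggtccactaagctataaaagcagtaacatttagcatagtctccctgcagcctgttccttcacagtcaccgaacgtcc
Lrat: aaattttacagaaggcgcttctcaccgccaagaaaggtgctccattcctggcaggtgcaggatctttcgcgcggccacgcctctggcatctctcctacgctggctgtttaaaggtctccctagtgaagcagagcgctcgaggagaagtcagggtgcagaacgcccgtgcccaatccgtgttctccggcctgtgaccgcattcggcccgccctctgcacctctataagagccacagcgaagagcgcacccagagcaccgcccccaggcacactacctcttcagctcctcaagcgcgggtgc
Rdh7: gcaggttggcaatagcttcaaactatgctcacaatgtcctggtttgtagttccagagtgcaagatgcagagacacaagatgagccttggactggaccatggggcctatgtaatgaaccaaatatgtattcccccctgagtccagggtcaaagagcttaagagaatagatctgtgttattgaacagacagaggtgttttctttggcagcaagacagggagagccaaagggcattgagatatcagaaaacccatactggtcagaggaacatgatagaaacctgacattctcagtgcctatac
Aldh1a1: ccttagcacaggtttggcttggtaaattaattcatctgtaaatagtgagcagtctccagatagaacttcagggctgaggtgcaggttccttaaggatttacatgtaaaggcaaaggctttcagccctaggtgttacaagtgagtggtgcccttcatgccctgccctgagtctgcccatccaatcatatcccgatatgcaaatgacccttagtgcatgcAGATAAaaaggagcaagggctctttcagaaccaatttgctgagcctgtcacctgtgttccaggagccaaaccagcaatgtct
Bco1: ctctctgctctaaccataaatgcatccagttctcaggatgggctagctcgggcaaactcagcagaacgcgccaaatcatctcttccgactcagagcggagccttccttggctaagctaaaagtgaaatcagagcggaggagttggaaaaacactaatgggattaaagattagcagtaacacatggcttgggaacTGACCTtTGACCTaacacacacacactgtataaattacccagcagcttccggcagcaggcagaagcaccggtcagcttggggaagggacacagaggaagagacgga

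The Rbp2 window held 4 matches, all on the opposite strand and therefore printed as reverse complements, and no match overlapped another. They were CAAAGT with its first printed base at -131 and -98 from the start site, AGGTCA at -58 and AGATAA at -43. Aldh1a1 held AGATAA at -32 on its own strand. Bco1 held AGGTCA at -56 and -49, in the same direction with 1 base between them, the arrangement called a direct repeat that receptors paired with the retinoid X receptor are known to bind. No letters of the 5 motifs stood in the windows of Lrat, Rdh7 and Isx. Among 32851 RefSeq promoters of this length, AGGTCA stood in 16.3%, CAAAGT in 14.4%, AGATAA in 11.2%, GTTAAT in 7.1% and TAATTA in 5.29%. These are matches of letters only, and none of the 5 motifs stood in the windows of all 4 genes that were high in control dam 3.

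Around the 7 members, 59 other genes of the pathway were listed by role, and 47 of them had counts enough to be tested over dams. None passed the threshold by edgeR (0% of all genes), 0 had an unadjusted p under 0.05 (1.36% of all genes), and 16 lay above 0 and 31 below (48.7% of all genes below), with a median of -0.06 against 0.00 for all genes (log2). Without control dam 3, of 48 tested genes 28 lay above 0 and 20 below, with a median of 0.03, and of all 17034 genes tested 8242 lay below. In males 13 of 46 lay above 0 and 33 below, with a median of -0.22 (48.3% of all genes below). Without control dam 3 the males had 22 above and 24 below, with a median of -0.03. In females 20 of 46 lay above 0 and 26 below, with a median of -0.04 (51.5% of all genes below). Without control dam 3 the females had 29 above and 17 below, with a median of 0.08. By role the median over dams was lowest for retinoic acid synthesis (-0.35, 3 genes), for ester synthesis and hydrolysis (-0.35, 4 genes) and for carotenoid uptake and cleavage (-0.33, 7 genes). Without control dam 3 these medians were -0.04, 0.09 (5 genes) and 0.05.

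Among genes of carotenoid handling, Bco2, which cuts carotenoids off centre, stood at 37.0 CPM in control male 3, at 17.0 CPM in control female 3 and at 1.78 to 8.84 CPM elsewhere. Its change over dams was -1.13 ± 0.67 (log2, SE; edgeR, adjusted p = 1.00) and 0.14 without control dam 3. Bco2 was thus high in the pups in which Bco1 lay inside the range of the rest. Mttp, which loads lipid onto chylomicrons, stood at 2667 and 1257 CPM in the pups of control dam 3 and at 461 to 836 CPM elsewhere. Npc1l1, a sterol transporter of the brush border, stood at 980 and 579 CPM in them and at 306 to 482 CPM elsewhere. In the ester list, Dgat1, an acyltransferase that can also esterify retinol, stood at 382 and 206 CPM against 107 to 162 CPM. Lpl, a lipase of capillary walls, lay inside the range of the rest with 98.3 and 88.5 CPM, and its change was 0.22 ± 0.11 (log2, SE; edgeR, adjusted p = 1.00).

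Among binding proteins, Ttr, the blood carrier transthyretin, was lowest in control male 3 with 26.3 CPM, while its sister, with 71.5 CPM, lay inside the range of 32.5 to 103 CPM of the 10 libraries of other dams. Fabp5, a fatty acid-binding protein, lay inside the range of these 10 libraries in both pups. Crabp1, a retinoic acid-binding protein, did not exceed 0.648 CPM.

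Among oxidoreductases, the alcohol dehydrogenase gene Adh1 stood at 134 and 31.9 CPM in the pups of control dam 3 and at 12.4 to 18.4 CPM elsewhere. Its change was -1.21 ± 0.62 over dams (log2, SE; edgeR, adjusted p = 1.00) and 0.02 without control dam 3. Dhrs4, a carbonyl reductase, had 126 and 119 CPM in them and between 41.7 and 80.2 CPM in the rest. Adh5, a broadly expressed dehydrogenase, had 69.9 and 68.3 CPM in them and between 44.8 and 63.0 CPM in the rest. Of the paralogs of Rdh7, Rdh9 stood at 1.63 and 2.06 CPM in these pups and at 0.39 to 1.22 CPM elsewhere, Rdh16 did not exceed 2.08 CPM and Rdh19 did not exceed 0.0650 CPM in any library. Rdh7 was thus by far the more abundant of these paralogs in control dam 3. In the libraries of the other dams its median lay below that of Rdh1. In control male 1 Rdh7, with 3.13 CPM, was close to Rdh1 with 2.43 CPM.

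Of the other retinal dehydrogenases, Aldh1a3 stood at 116 and 84.8 CPM in the pups of control dam 3 and at 40.1 to 55.8 CPM elsewhere. Aldh1a2 lay near the others, at 54.1 and 48.3 CPM against 25.4 to 50.3 CPM. Their changes over dams were -0.46 ± 0.28 and -0.20 ± 0.14 (log2, SE; edgeR, adjusted p = 1.00). For breakdown, Cyp26b1, which hydroxylates retinoic acid, was the only gene of its list with counts enough to be tested and ran from 9.87 to 19.2 CPM. Its relative Cyp26a1 did not exceed 0.260 CPM.

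Among the receptors, the log2 fold change over dams was 0.01 ± 0.11 for Rxra, -0.04 ± 0.09 for Rxrb and 0.16 ± 0.09 for Rarg (SE; edgeR, adjusted p = 1.00 for each). Both Rxra, at 200 and 151 CPM, and Rxrb, at 53.6 and 51.3 CPM, lay inside the range of the other libraries in the pups of control dam 3. Of the retinoic acid target list, Rarres1, a gene induced by retinoids, was low in the pups in which Rbp2 was high. It stood at 2.15 CPM in control male 3, at 17.0 CPM in control female 3 and at 49.0 to 144 CPM elsewhere. Tgm2, a transglutaminase, stood at 180 CPM in control male 3 and at 86.5 to 123 CPM in the other 11 libraries. Rarres2, which encodes chemerin, lay inside the range of the rest. The heat map shows some of these genes beside region markers and Vil1, a marker of enterocytes. The region markers drawn were picked after their values were seen. Not drawn are Slc51b, higher in both pups of control dam 3, and Slc51a, inside the range of the rest. Fgf15 and Onecut2, for which the brother and the sister differed, are not drawn either.

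**Figure D4:**
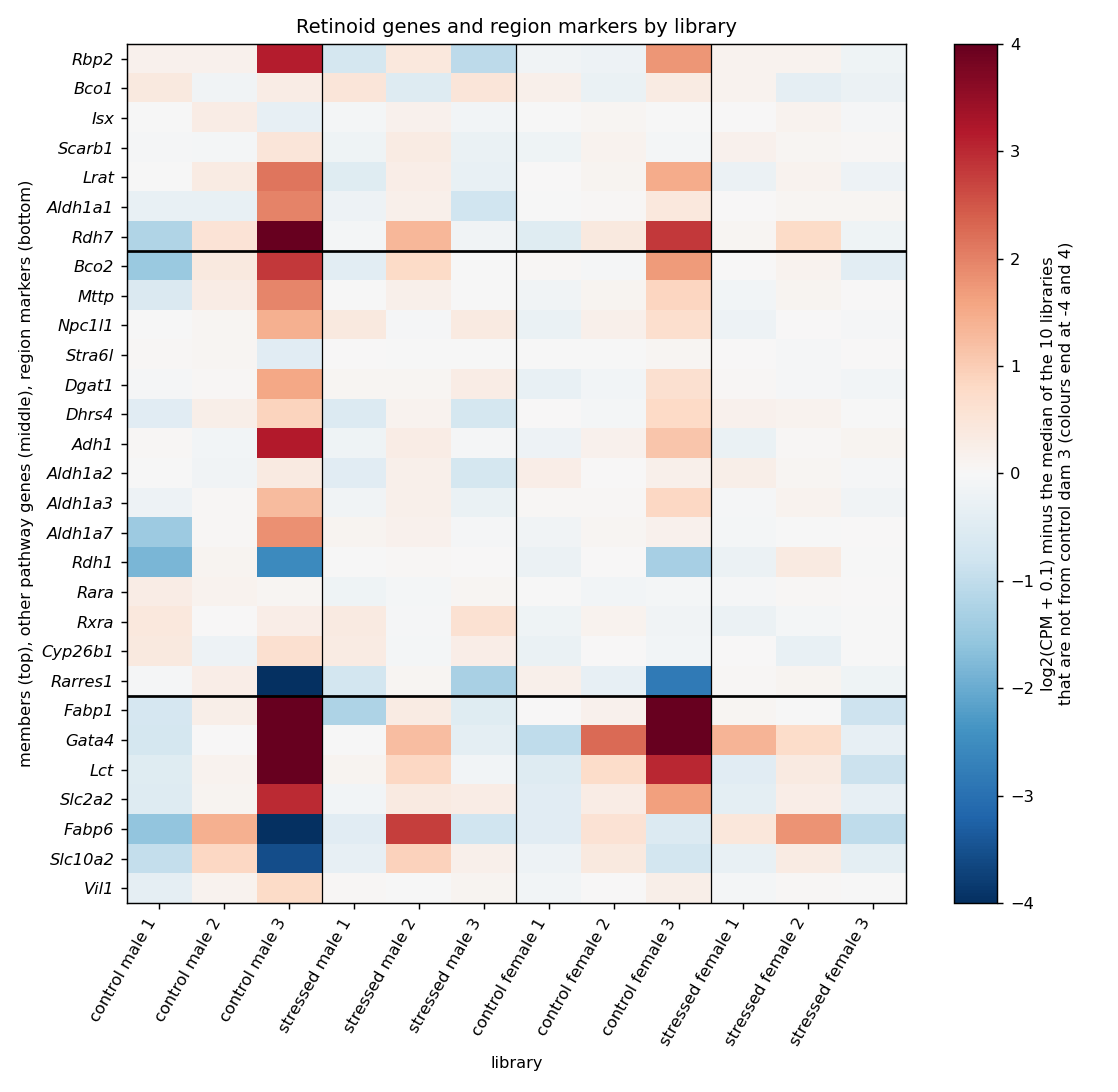
Each cell is log2(CPM + 0.1) of a gene in a library (columns) minus the gene's median over the 10 libraries not from control dam 3, with colours ending at -4 and 4. The 7 members are at the top and other pathway genes in the middle. Markers of gut region are at the bottom, with the enterocyte marker Vil1 in the last row. In the columns of control male 3 and control female 3, Rbp2, Lrat, Rdh7 and Bco2 are red. The upper-intestinal genes Fabp1, Gata4, Lct and Slc2a2 are red there too, while Rarres1 is blue in both.

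The genes of most similar pattern were sought among 13461 genes by the root mean square (RMS) difference in centred log2 CPM, as a description. Over all 12 libraries the 3 nearest to Rbp2, whose own RMS deviation was 1.07, were Fabp2 (RMS difference 0.26), H2-Q2 (0.27) and Cdr2 (0.28). Nearest to Lrat were Paqr7 (0.16), Sec14l2 (0.18) and Slc5a1 (0.19), nearest to Aldh1a1 were Casp6, Vwa1 and Gyk, and nearest to Rdh7 were Sectm1b (0.27), Ugt2a3 (0.33) and Cyp2c65 (0.35). Nearest to Isx were Nek3 (0.07), Mcoln3 and Mpst, to Scarb1 Pnpla2 (0.09), P2rx7 and Nod1, and to Bco1 Eme2 (0.17), Casp4 and Ccdc34. Over the 10 libraries without control dam 3, the 3 nearest to Rbp2 were Akr1b8, Tmem9 and Ube2l6 (0.13 each), and those nearest to Rdh7 were Lrrc26, Slc4a5 and Ces2a. Paqr7 was among the 3 nearest to Lrat, Pnpla2 to Scarb1 and Eme2 to Bco1 in both sets of libraries, and no other of these genes was. No member was among the 3 genes nearest to another member in either set. Between members, the smallest difference over 12 libraries was that of Isx and Scarb1 (0.27), followed by Lrat and Aldh1a1 (0.38) and by Rbp2 and Lrat (0.41). The value for Isx and Scarb1 exceeded their own RMS deviations, 0.15 and 0.21. It was small because both genes varied little, and it does not show a shared pattern.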

How the data were processed

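Ileal RNA of 12 pups was measured, 1 male and 1 female from each of 3 stressed and 3 control dams. The deposited table holds raw counts of reads per gene, and a second deposited table holds FPKM. For all 240813 nonzero counts FPKM equalled the count over gene length and library total within 1e-06. The authors' table of comparisons gives log2 fold changes and, per the file headers, p-values and adjusted p-values. Builds mm10 and GRCm38 and the tools edgeR 3.16.5, DESeq2, HTSeq 0.6.1, STAR 2.5 and TopHat come from the submitters' processing notes, without their roles. Whether strand was counted, and the annotation release, are not given in the sources used here.

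Counts were tested by edgeR 4.0.16 under R 4.3.3, with TMM factors, the default filterByExpr and the F test of its quasi-likelihood fit, with Benjamini-Hochberg adjustment over all genes tested and a threshold of 0.05. For the comparison of dams each brother and sister were added into 1 sample (16749 genes). 1 fit of the 4 groups (16102 genes, all 12 libraries sharing 1 estimate of the spread) gave the other comparisons. All 7 members passed the filter in both fits. SE and 95% intervals were derived from the F statistic. The scripts were tested on simulated data. The alternatives tried were DESeq2 1.42.0, its size factors within edgeR, no filter, limma 3.58.1 on log2(FPKM + 1) and log2(FPKM + 0.1), a replicate block, each sample left out in turn and both pups of control dam 3 left out. With 3 dams per group, the SE over dams ran from 0.12 for Isx and Scarb1 to 1.06 for Rdh7 (log2).

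By the labels, littermates share a dam, so they can be paired in the comparisons of the sexes. The main fit did not pair them, and litter as a block was an alternative. The deviations of littermates correlated between -0.362 and 0.545. No label ties a stressed dam to the control dam of the same number. Replicates of a group differed by 8.67 to 191 in chi-square per degree of freedom, so no library was a copy of another of its group. Libraries of different groups were not compared in this way.

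The members, the role lists and the marker lists were chosen with earlier results of these data known. Genes named from a role list are the 2 of highest mean FPKM and the 1 of smallest p over dams, besides the paralogs of members. A result that this rule would name is not reported here. Region markers named singly, and Stra6l and Rara in the heat map, were picked after their values were seen. Sequences are from RefSeq, matched by symbol. Shared 50-base stretches were counted in GENCODE M21 transcripts.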

Additional observations from a re-analysis of the deposited data

Results flagged for a closer look

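Among the 6 pups of control dams, control male 3 stood far above the next library for 3 of the 7 genes by Dixon's criterion, whose critical value for 6 samples is 0.625. For Rbp2 it had 1895 CPM, and the gap to the next pup was 0.685 of the group's range. For Aldh1a1 it had 286 CPM, with a gap of 0.831 of the range, and for Rdh7 163 CPM, with a gap of 0.690. The next pup was the sister from the same litter in each case. In all, 14 groups (7 genes in the pups of control and of stressed dams) were examined. Chance alone marks about 1 in 20 groups of independent, normally distributed values. The 6 pups include littermates, and the 3 values come from 1 library. The criterion was applied to the 7 genes only, so the share of all genes it would mark in control male 3 is not known. No pup of a stressed dam was marked for any of the 7 genes. For Lrat the highest pup was also control male 3, with a gap of 0.462 of the range, below the critical value, because its sister was high as well. In this library the summed upper-intestinal markers stood at 16269 CPM, and their part in these values was not tested.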

How the results depend on the processing

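Of 504 recomputed member values, 442 kept their direction and 62 did not, and none passed the threshold (lowest adjusted p 0.158). Over dams, Isx changed sign with median-ratio size factors (-0.0096), DESeq2 (-0.0096) and no filter (-0.0033), and Scarb1 with median-ratio size factors (-0.0064) and DESeq2 (-0.0060). The dam number as a replicate block gave -0.89 for Rbp2, -0.80 for Lrat and -0.66 for Rdh7 over dams, and in males -0.012 for Bco1 and 0.0091 for Isx. Litter as a replicate block gave -0.018 for Aldh1a1 between the sexes. No label ties a stressed dam to the control dam of the same number, and the blocks changed no call. In males limma on log2(FPKM + 1) and log2(FPKM + 0.1) gave 0.058 and 0.059 for Isx.

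Without both pups of control dam 3 the male changes were 0.041 for Scarb1, 0.080 for Aldh1a1 and 0.62 for Rdh7, the female ones 0.22 for Rbp2, 0.029 for Aldh1a1 and 0.27 for Rdh7, and the difference between the changes 0.051 for Aldh1a1 and 0.35 for Rdh7. Between the sexes they were -0.00039 for Rbp2, 0.043 for Isx, -0.081 for Scarb1 and -0.30 for Aldh1a1.

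Leaving out 1 dam at a time gave ranges of -1.84 to -0.095 for Rbp2, -0.31 to 0.050 for Bco1, -0.087 to 0.098 for Isx, -0.090 to 0.077 for Scarb1, -1.32 to -0.24 for Lrat, -0.80 to 0.051 for Aldh1a1 and -2.47 to 0.43 for Rdh7. Leaving out 1 library gave, in males, -2.77 to -0.46 for Rbp2, -0.17 to 0.29 for Bco1, -0.14 to 0.14 for Isx, -0.39 to 0.041 for Scarb1, -1.63 to -0.31 for Lrat, -1.49 to 0.080 for Aldh1a1 and -3.14 to 0.62 for Rdh7. In females the ranges were -1.08 to 0.22 for Rbp2, -0.053 to 0.077 for Isx, -0.22 to 0.033 for Aldh1a1 and -1.84 to 0.27 for Rdh7. For the difference they were -2.40 to 0.27 for Rbp2, -0.17 to 0.13 for Isx, -1.12 to 0.49 for Lrat, -1.36 to 0.19 for Aldh1a1 and -2.72 to 1.96 for Rdh7. Between the sexes they were -0.48 to 0.86 for Rbp2, -0.099 to 0.049 for Isx, -0.068 to 0.088 for Scarb1, -0.28 to 0.52 for Lrat, -0.37 to 0.41 for Aldh1a1 and -0.70 to 1.64 for Rdh7.

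Over all genes, the count called in males was 0 to 1 when 1 library was left out (1 without stressed male 2), and that between the sexes 8 to 1384 (1384 without stressed male 2), against 8 in edgeR and 18 in DESeq2 with all libraries. The cause of these changes was not tested. With 3 dams a group, the intervals leave changes of several fold open for Rbp2, Lrat and Rdh7, and 15 to 31 reads per library limit Bco1.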

Other observations

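In the 10 libraries not from control dam 3, the 4 pups of the dams numbered 2, from 1 control and 1 stressed dam, held the 4 highest levels of Isx, Lrat and Rdh7. For Isx they ran from 146 to 169 CPM, against 128 to 140 CPM in the other 6 libraries. For Lrat they ran from 60.1 to 71.1 CPM, against 40.4 to 56.6 CPM, and for Rdh7 from 9.53 to 18.7 CPM, against 3.13 to 7.64 CPM. The same 4 pups held 3 of the 4 lowest levels of Bco1, but the ranges overlapped, with 0.74 to 0.99 CPM against 0.92 to 1.59 CPM. These Bco1 levels rest on 15 to 20 reads in the 4 pups. The ranges also overlapped for Scarb1 and Aldh1a1, with 3 among the 4 highest and 1 among the 4 lowest for each gene. The same held for Rbp2, with 2 among the 4 highest and 1 among the 4 lowest. Of the ileal markers, Fabp6 was also highest in them, with 133 to 608 CPM against 29.9 to 123 CPM, but the sum of all 5 ileal markers overlapped, with 642 to 1340 CPM against 366 to 660 CPM. The labels number the dams within each group and do not say that a number means a shared day or batch. This pattern was noticed after the values were seen, and it was not tested. The share of all genes with such a split was not counted, so it cannot be read as a trait of these genes.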
